A study of Mus musculus with 9 samples.

Results

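The proteases packed into mast cell granules were followed across mouse bone marrow cells carrying EGFP, NUP98-CDX1 or NUP98-CDX4. The set held the 10 genes Cma1, Cma2, Mcpt1, Mcpt2, Mcpt4, Mcpt8, Tpsb2, Tpsab1, Cpa3 and Gzmb, taken by gene symbol from the platform annotation. They had 15 of the 45281 probes on the array, whose symbols name 19057 genes. A probe counted as detected on an array where its deposited detection p-value was under 0.05. Testing was limited to probes detected on at least 3 of 9 arrays, and 6 of the 10 genes (Cma1, Cma2, Mcpt4, Mcpt8, Tpsb2 and Cpa3), with 9 probes, met that limit. Mcpt1, Mcpt2 and Gzmb were detected on no array and Tpsab1 on 1.

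Mast cells store proteases in secretory granules, bound to the proteoglycan serglycin, and release them when the receptor for IgE is crosslinked. Most chymases cut proteins after aromatic residues, tryptases cut after basic residues, and carboxypeptidase A3 trims residues from the exposed C-terminal ends. In mice, Mcpt1 and Mcpt2 mark mast cells of mucosal surfaces, Mcpt4, Cma1 and Tpsb2 mark those of connective tissue, and Mcpt8 is a protease of basophils. Cpa3 is made early in the mast cell lineage and also by basophils and some blood progenitors, and stem cell factor, the ligand of Kit, is the main growth factor of mast cells.

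The marrow donors were C57/B6 mice, 6 to 8 weeks old, and all had been dosed with 5-FU, which removes cycling cells and so enriches primitive ones. The cells were transfected with NUP98-CDX1, NUP98-CDX4 (fusions of the nucleoporin NUP98 with a CDX homeobox factor) or, as the control, EGFP, and grown in IMDM, a basal medium, to which 2% serum, IL-6 and stem cell factor were added for all 3 groups alike. Each group had 3 single-colour Illumina bead arrays. The series' design text calls the samples lines run in triplicate, and nothing states whether they were separate cultures or mice, so p-values measure only the spread between these samples, which may be technical. Column names add a day, which no label explains: it is 21 in the EGFP columns, 28 in those of NUP98-CDX1, and 17, 17 and 20 in those of NUP98-CDX4. Day and construct cannot be told apart. Between 17257 and 19300 probes were detected per array. Probes that were detected on no array divided the arrays into 2 sets that cross the groups. The dimmer set held EGFP replicate 3, the first pair of NUP98-CDX1 arrays (replicates 1, 2) and NUP98-CDX4 replicate 2, and the brighter set held the other 5. Each set left at least 1 group with a single array (NUP98-CDX1 in the brighter set, EGFP and NUP98-CDX4 in the dimmer set). Within a set only differences are therefore given, where a call depended on it.

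The promoters of the genes that the results turn on are shown because 3 chymase genes of 1 cluster fell together while Mcpt8 in the same cluster and Cpa3 elsewhere did not always follow. RefSeq promoter entries (build GRCm38.p6) were found for 6 of the 10 genes, namely Cma1, Mcpt1, Mcpt4, Mcpt8, Gzmb and Cpa3. The 250 bases before the start are printed 5′ to 3′ on the gene's strand for 5 of them: Cma1 at chr14:55944676-55944925 (minus strand), Mcpt4 at chr14:56062311-56062560 (minus strand), Mcpt1 at chr14:56017714-56017963 (plus strand), Mcpt8 at chr14:56085198-56085447 (minus strand) and Cpa3 at chr3:20242182-20242431 (minus strand). Capitals mark GATAA, the core letters bound by GATA factors such as Gata2, or its reverse complement.
Cma1: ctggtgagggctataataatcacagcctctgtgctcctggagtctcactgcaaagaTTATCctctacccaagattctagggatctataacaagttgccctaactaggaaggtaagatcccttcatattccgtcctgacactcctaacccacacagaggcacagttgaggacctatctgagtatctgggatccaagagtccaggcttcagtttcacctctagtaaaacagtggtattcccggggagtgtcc
Mcpt4: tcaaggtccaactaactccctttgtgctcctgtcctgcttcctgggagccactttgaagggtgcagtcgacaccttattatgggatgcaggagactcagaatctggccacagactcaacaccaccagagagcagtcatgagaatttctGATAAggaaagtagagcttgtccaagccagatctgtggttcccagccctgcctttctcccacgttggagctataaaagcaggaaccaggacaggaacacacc
Mcpt1: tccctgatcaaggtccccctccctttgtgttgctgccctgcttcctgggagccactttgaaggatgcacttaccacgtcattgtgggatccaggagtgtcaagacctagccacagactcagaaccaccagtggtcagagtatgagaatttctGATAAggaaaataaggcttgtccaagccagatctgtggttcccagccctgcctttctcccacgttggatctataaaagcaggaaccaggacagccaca
Mcpt8: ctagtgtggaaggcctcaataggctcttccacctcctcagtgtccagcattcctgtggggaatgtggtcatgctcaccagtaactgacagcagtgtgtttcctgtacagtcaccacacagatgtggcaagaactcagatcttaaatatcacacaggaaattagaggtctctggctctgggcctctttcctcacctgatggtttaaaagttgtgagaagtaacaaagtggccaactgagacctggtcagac
Cpa3: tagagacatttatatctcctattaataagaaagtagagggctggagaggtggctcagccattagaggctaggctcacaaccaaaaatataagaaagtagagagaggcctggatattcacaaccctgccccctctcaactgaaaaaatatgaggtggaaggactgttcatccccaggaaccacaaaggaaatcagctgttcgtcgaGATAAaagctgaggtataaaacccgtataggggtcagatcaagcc
GATAA occurred 1 time each in the Cma1, Mcpt4, Mcpt1 and Cpa3 windows, on the opposite strand in Cma1, and 0 times in those of Mcpt8 and Gzmb. Among 32851 RefSeq promoters of the same length, 22.6% held it on either strand, so a match is common. The match began at position -194 before the start in Cma1, -98 in Mcpt1, -102 in Mcpt4 and -45 in Cpa3. CATGTG and CACGTG, letters that MITF can bind, occurred in none of the 6 windows on either strand, nor did the STAT5 motif TTCC and GAA with 3 free bases between, against 12.3%, 6.02% and 3.27% of all promoters. No match overlapped another motif searched. The Mcpt1 and Mcpt4 windows were alike at 81.5% of aligned positions, while the other pairs lay between 42.4% and 50.5%. The Mcpt1 window held the same GATAA match as Mcpt4, and Mcpt1 was detected on no array. Whether the match affects any of these genes was not tested.

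The 3 chymases that were detected, Cma1, Cma2 and Mcpt4, fell in both fusion groups. Cma1, the mouse alpha-chymase, read 8.76, 8.75 and 9.22 log2 intensity on EGFP replicates 1 to 3, 6.07, 5.65 and 6.04 with NUP98-CDX1, and 5.04, 4.61 and 5.07 with NUP98-CDX4. The 3 groups did not overlap, and the probe was detected on every EGFP and NUP98-CDX1 array and on none with NUP98-CDX4. With NUP98-CDX1 Cma1 fell by 2.99 on the log2 scale (95% confidence interval -3.46 to -2.53), which is 7.97-fold, with a limma adjusted p of 0.000227 over 13160 features. With NUP98-CDX4 it was at least 11.8-fold lower than in EGFP cells (limma adjusted p = 1.38e-05). "At least" marks a bound throughout: where a group's probe was not well above background, its arrays were set to each array's lowest detected signal if they lay below it. Another Cma1 probe gave the same picture, with means of 9.05 ± 0.40, 5.66 ± 0.35 and 4.69 ± 0.08 (SD, n = 3) in EGFP, NUP98-CDX1 and NUP98-CDX4.

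Cma2, a close relative and neighbour of Cma1, had the largest fall with NUP98-CDX1 among the genes detected in that group. It read 9.98, 9.99 and 10.53 in EGFP, 6.66, 5.67 and 6.22 with NUP98-CDX1, and 4.57, 4.58 and 4.74 with NUP98-CDX4. No array of one group reached the range of another, and the NUP98-CDX4 arrays were all undetected. Cma2 fell by 3.98 with NUP98-CDX1 (95% confidence interval -4.56 to -3.41), or 15.8-fold (limma adjusted p = 0.000195). Against NUP98-CDX4 the EGFP level was at least 28.2-fold higher (limma adjusted p = 1.26e-05). A dimmer Cma2 probe was detected only on NUP98-CDX1 replicate 2, at 5.28, and not in EGFP cells (4.82 ± 0.24, SD, n = 3), so the 2 probes disagreed and the fall rests on the brighter one.

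Mcpt4, the chymase that accounts for much of the chymotrypsin-like activity of mouse connective tissue mast cells, moved with the Cma genes. Its values were 9.24, 9.03 and 9.88 in EGFP, 6.18, 5.28 and 5.83 with NUP98-CDX1, and 4.54 on each of the 3 NUP98-CDX4 arrays. Mcpt4 was detected with NUP98-CDX1 on 3 of 3 arrays at values far below every EGFP array, and on 0 of 3 with NUP98-CDX4. With NUP98-CDX1 Mcpt4 fell by 3.62 (95% confidence interval -4.22 to -3.02), 12.3-fold (limma adjusted p = 0.00034), and with NUP98-CDX4 it was at least 16.4-fold lower (limma adjusted p = 2e-05). Chymase genes are near copies of each other, probe sequences were not used here, and cross-hybridization between them was not tested.

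The tryptase Tpsb2, whose protein forms heparin-stabilized tetramers, was seen in EGFP cells alone. Its probe read 8.11, 7.86 and 9.13 in EGFP, 5.12, 4.70 and 5.06 with NUP98-CDX1, and 4.66, 4.47 and 4.57 with NUP98-CDX4. All 3 EGFP arrays were detected and all 6 fusion arrays were not. Tpsb2 was at least 8.42-fold lower with NUP98-CDX1 and at least 8.11-fold lower with NUP98-CDX4 (limma adjusted p = 0.000904 and 0.000259). It entered the test only through the EGFP arrays, so it had to differ. Another Tpsb2 probe was detected nowhere. Tpsab1, the neighbouring tryptase gene, which does not yield functional protein in C57BL/6 mice, was detected on EGFP replicate 3 alone, at 5.99, and read 5.02 and 4.88 on the other EGFP arrays.

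**Figure D1:**
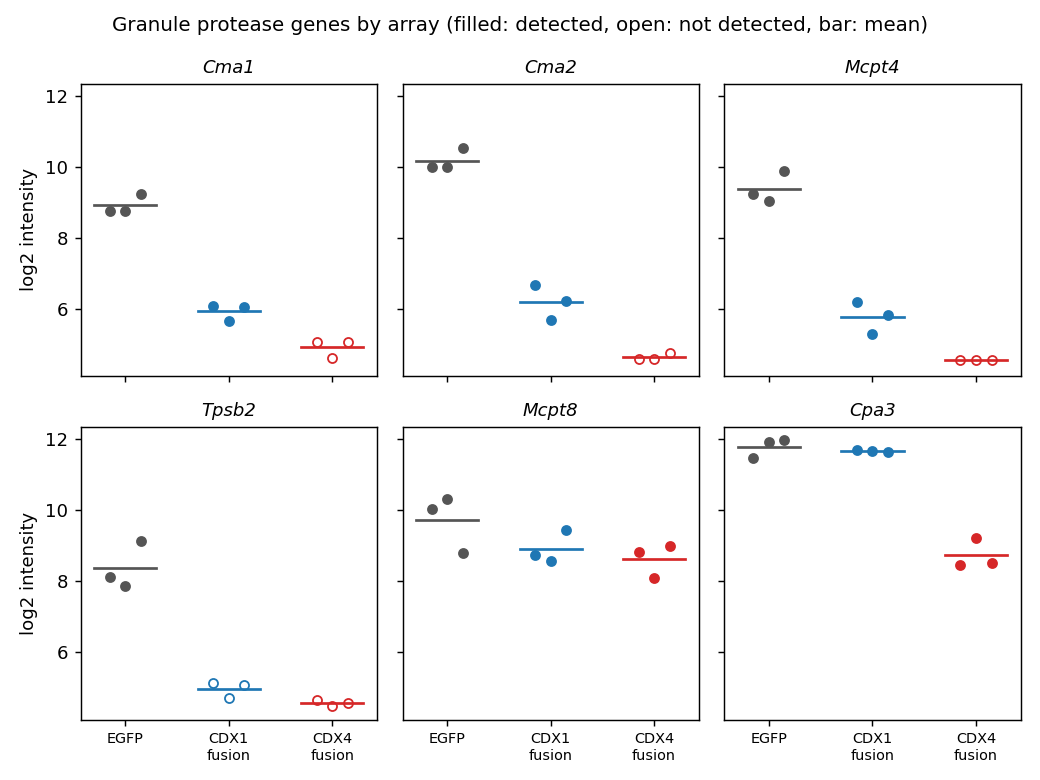
Normalized log2 intensity of the brightest probe of each of the 6 tested protease genes on each of the 9 arrays, grouped by construct, with filled points detected, open points not detected and the bar at the group mean. Cma1, Cma2, Mcpt4 and Tpsb2 are high in EGFP alone, and Cpa3 is high in EGFP and NUP98-CDX1.

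Cpa3, the carboxypeptidase that is stored with Cma1 in connective tissue mast cells, behaved differently from the chymases in the NUP98-CDX1 group. It read 11.46, 11.93 and 11.97 in EGFP, 11.71, 11.69 and 11.63 with NUP98-CDX1, and 8.47, 9.205 and 8.51 with NUP98-CDX4, detected on all 9 arrays. The EGFP and NUP98-CDX1 arrays overlapped, and every NUP98-CDX4 array was lower than all of them. Against EGFP the difference with NUP98-CDX1 was -0.11 (95% confidence interval -0.61 to 0.40, limma adjusted p = 0.866), so the interval excludes a fall of the size seen for the chymases. With NUP98-CDX4 Cpa3 fell by 3.06 (95% confidence interval -3.56 to -2.55), which is 8.33-fold (limma adjusted p = 0.000204). The other Cpa3 probes gave -0.16 and -0.34 with NUP98-CDX1 (limma adjusted p = 0.796 and 0.698 over all probes) and -2.98 and -2.935 with NUP98-CDX4 (limma adjusted p = 8.92e-05 and 0.000444).

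Mcpt8, the basophil member of the chromosome 14 cluster, did not pass the test in either fusion group. It read 10.05, 10.32 and 8.81 in EGFP, 8.73, 8.56 and 9.44 with NUP98-CDX1, and 8.82, 8.08 and 8.98 with NUP98-CDX4, and was detected on all 9 arrays. EGFP replicates 1 and 2 lay above every fusion array, but EGFP replicate 3 lay within their range. The differences were -0.81 with NUP98-CDX1 (95% confidence interval -1.74 to 0.12, limma adjusted p = 0.528) and -1.10 with NUP98-CDX4 (95% confidence interval -2.03 to -0.16, limma adjusted p = 0.214). With the array set as a block, the NUP98-CDX4 difference passed (limma adjusted p = 0.00142). The difference was -1.28 within the brighter set. It was -0.73 within the dimmer set, where EGFP and NUP98-CDX4 had 1 array each.

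**Figure D2:**
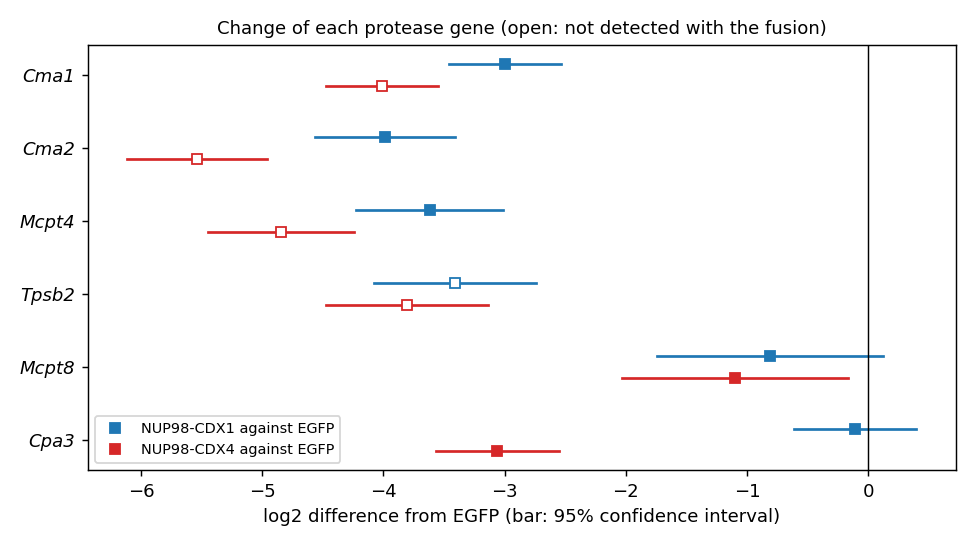
Difference in log2 intensity from EGFP for the 6 tested protease genes with NUP98-CDX1 and with NUP98-CDX4, with 95% confidence intervals from the limma model; open squares mark genes not detected with that fusion, where the fitted value is no measured fold. The chymases and Tpsb2 lie far below 0 in both comparisons, and Cpa3 does so with NUP98-CDX4, at -3.06, and not with NUP98-CDX1, at -0.11.

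Mcpt1 and Mcpt2, the chymases of mucosal mast cells, and Gzmb, granzyme B of killer cells and of some mast cells, stayed at background in every group. Mcpt1 ranged from 4.51 to 4.74 over the 9 arrays and Mcpt2 from 4.58 to 4.855. Gzmb ranged from 4.42 to 4.98. No fold is given for them, since neither side was measured.

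Counted together, 4 of the 6 tested genes fell with NUP98-CDX1 and none rose, against 0.441% of all 13160 features called lower and 0.6% called higher. With NUP98-CDX4, 5 of 6 fell and none rose, against 2.95% and 2.42% of all features. In the mean of both fusions against EGFP, 5 of 6 were lower, where 2.19% of features were. The comparisons with EGFP share the 3 EGFP arrays. The median difference of all features was 0.015 with NUP98-CDX1 and 0.028 with NUP98-CDX4, while the 4 genes that fell with NUP98-CDX1 lay between -3.98 and -2.99. These counts describe the genes that could be tested, and Tpsb2 could be tested only because EGFP cells had it. In bulk RNA, fewer cells of a type and less RNA per cell cannot be told apart.

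The split between chymases and Cpa3 was then measured directly, by subtracting each array's Cpa3 value from every feature before the fit. With NUP98-CDX1 the change relative to Cpa3 was -2.88 for Cma1 (95% confidence interval -3.61 to -2.16), -3.875 for Cma2 and -3.51 for Mcpt4, and these passed (limma adjusted p between 0.000124 and 0.000901), against 0.175% of features called lower. Tpsb2, at -3.30, was set against a background value and was tested only through its EGFP arrays, so its pass (limma adjusted p = 0.000544) was fixed by that choice. Mcpt8, at -0.70, did not pass (limma adjusted p = 0.845). Within each array set either EGFP or NUP98-CDX1 had only 1 array, so the differences alone are given. Within the brighter set they were -2.63 for Cma1, -3.685 for Cma2 and -3.23 for Mcpt4. Within the dimmer set they were -3.46, -4.10 and -3.88. Every feature in the fit relative to Cpa3 shares the noise of the Cpa3 probe, so its p-values depend on each other. Without limma's empirical Bayes step, a setting added after the data were seen, Cma2 alone passed (adjusted p = 0.0441), beside 0.0629 for Mcpt4, 0.0649 for Tpsb2 and 0.0751 for Cma1. With the other Cpa3 probes as the reference 0 of these 4 passed in that setting (adjusted p between 0.0656 and 0.514), though each difference stayed below -2.65.

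With NUP98-CDX4, where Cpa3 itself fell, the split could be given only in part. Cma2 fell by 2.48 relative to Cpa3 and the Mcpt4 difference was -1.785 (limma adjusted p = 5.4e-06 and 0.000135), and 0.0988% of features were called lower. Since both genes were undetected with NUP98-CDX4, these values are those of the background floor and the true difference may be wider. Cma2 passed in all 20 other settings run, while Mcpt4 did not pass with quantile normalization (-0.50, limma adjusted p = 0.0806) or with the authors' processed values (-0.505, 0.0526). Cma1, at -0.95, also passed (limma adjusted p = 0.0142), but its sign turned under those 2 settings. The Cma1 difference was -0.51 within the brighter set. It was -1.96 within the dimmer set, where EGFP and NUP98-CDX4 had 1 array each. Tpsb2, at -0.75, did not pass (limma adjusted p = 0.053). Of the 15 other settings in which it was tested, it passed as lower in 5 and its sign turned in 3. Its NUP98-CDX4 values were at background, and it was tested only through its EGFP arrays. Mcpt8 rose by 1.96 relative to Cpa3 (limma adjusted p = 0.00196), as did 99.4% of all features, which says no more than that Cpa3 fell.

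**Figure D3:**
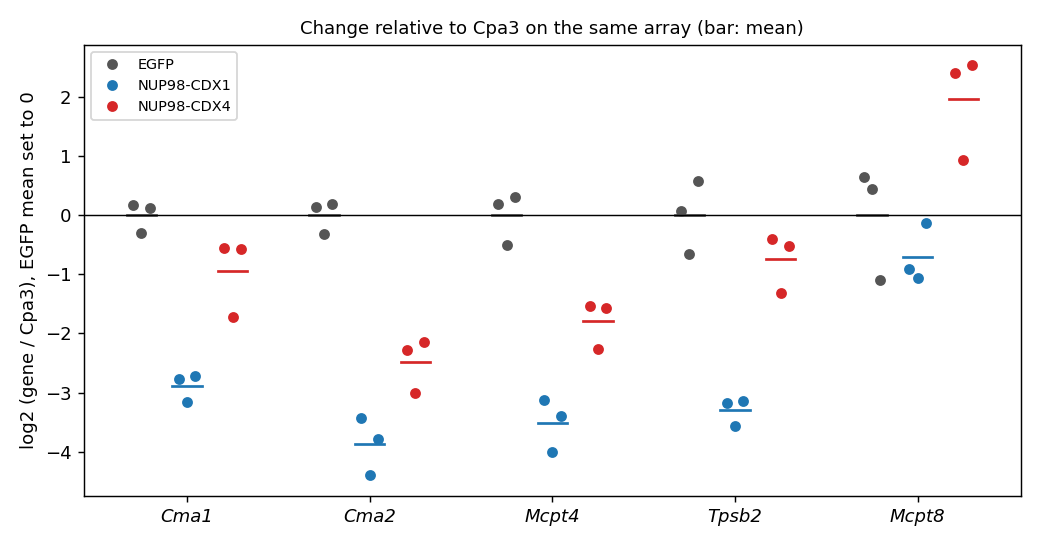
Difference in log2 intensity between each protease gene and Cpa3 on each array, with the EGFP mean of each gene set to 0 and the bar at the group mean; with NUP98-CDX4 the chymases and Tpsb2 are at background. With NUP98-CDX1 the chymases and Tpsb2 lie far below every EGFP array, while Mcpt8 stays within the EGFP range, and with NUP98-CDX4 Mcpt8 lies above 0.

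Set against each other, the fusions differed in Cpa3. It was 7.72-fold lower with NUP98-CDX4 than with NUP98-CDX1 (log2 difference -2.95, limma adjusted p = 0.00339), the only member of 6 to pass, where 0.114% of features were called lower. Within the dimmer array set alone, with 1 NUP98-CDX4 array, the difference was -2.50. Cma1, Cma2 and Mcpt4 were detected on all NUP98-CDX1 arrays and on no NUP98-CDX4 array, and were at least 1.48-fold, 1.78-fold and 1.34-fold lower with NUP98-CDX4 (limma adjusted p = 0.13, 0.0737 and 0.162). With the array set as a block, Cma1 and Cma2 passed (limma adjusted p = 0.0436 and 0.0296). Their differences were -0.99 and -1.57 within the brighter set, which held 1 NUP98-CDX1 array. Within the dimmer set, with 1 NUP98-CDX4 array, they were -0.99 and -1.58. All NUP98-CDX4 arrays lay below all NUP98-CDX1 arrays for Cma1, Cma2, Mcpt4 and Cpa3, where 5.38% of features were so separated, and the groups overlapped for Mcpt8. Tpsb2 was undetected on all 6 fusion arrays, so the order of its values there has no meaning.

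On chromosome 14 the annotation lists 15 protease genes in the order Cma1, Cma2, Mcpt1, Mcpt2, Mcpt9, Mcpt4, Mcpt8, Ctsg, Gzme, Gzmd, Gzmg, Gzmn, Gzmf, Gzmc and Gzmb, running from the mast cell proteases through cathepsin G, a neutrophil granule protease, to the granzymes of killer cells. Cma1, Cma2 and Mcpt4 fell, and Mcpt8 and Ctsg, which lie next to each other, did not pass the test. Ctsg read 15.18 in EGFP, 15.24 with NUP98-CDX1 and 14.91 with NUP98-CDX4 as group means (limma adjusted p = 0.884 and 0.442). Its NUP98-CDX4 arrays (highest 15.05) lay below all EGFP (lowest 15.105) and NUP98-CDX1 arrays (lowest 15.18). Between the fusions, 5.38% of all features were so separated. Whether saturation of so bright a signal limited the Ctsg differences was not tested. Of the 7 other listed neighbours beside the members, Gzmd was detected on 1 EGFP and 1 NUP98-CDX1 array, Gzmn on 1 NUP98-CDX1 array, and Mcpt9, Gzmc, Gzme, Gzmf and Gzmg on none. Tpsab1 and Tpsb2 are neighbours on chromosome 17, and Cpa3 lies on chromosome 3.

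**Figure D4:**
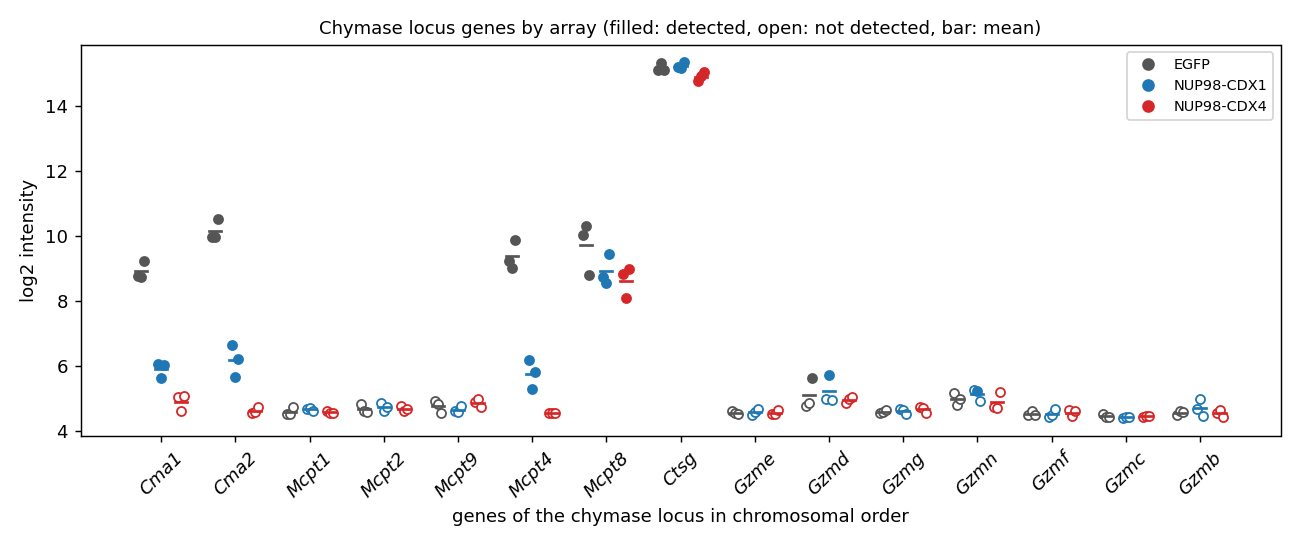
Log2 intensity on each of the 9 arrays for the 15 protease genes of the chromosome 14 cluster in annotated order (not to distance), with filled points detected, open points not detected and the bar at the group mean. The mast cell chymases Cma1, Cma2 and Mcpt4 separate by group, Mcpt8 and Ctsg differ less between groups, and the other genes lie at or near background, Gzmd being detected on 2 arrays and Gzmn on 1.

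The features most like each protease were ranked by Pearson's r over the 9 arrays among 9714 named features, as a description, since the 9 arrays share 3 groups. Nearest to Cma1 were Cma2 (r = 0.996), Mcpt4 (0.996), the chemokine Ccl2 (0.989), Tpsb2 (0.982) and Rbmx (0.981). For Cpa3 they were Anxa1 (0.975), Cldn15 (0.967), Mitd1 (0.964), Mogat2 (0.963) and Slc40a1 (0.962), with no protease among them, and for Tpsb2 they were Mcpt4 (0.984), Cma1 (0.982), Cma2 (0.975), Ifi214 (0.968) and Rprm (0.967). The correlation of Cpa3 with Cma1 was 0.697, with Tpsb2 0.589 and with Mcpt8 0.419, against 0.998 between Cma2 and Mcpt4.

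Other genes of mast cell identity were set beside the proteases. Of 16 mast cell identity genes 10 were measured, and 0 passed limma's adjusted threshold with NUP98-CDX1 (median difference -0.002), a count near the 0.441% and 0.6% of all features called lower and higher. Fcer1a (-0.645) and Hpgds, a prostaglandin synthase (-0.89), had an unadjusted p under 0.05, with NUP98-CDX1 arrays below all EGFP arrays (limma adjusted p = 0.329 and 0.28). With NUP98-CDX4, 3 were lower and none higher (median -0.775), against 2.95% and 2.42% of all features. The 3 were the IgE receptor chains Fcer1a (5.08-fold, limma adjusted p = 0.000986) and Ms4a2 (at least 2.48-fold, 0.0089) and the histamine-making enzyme Hdc (2.5-fold, 0.0371). Ms4a2 was detected on 2 of the 3 NUP98-CDX4 arrays. Fcer1a read 7.87, 8.235 and 8.58 in EGFP, 7.73, 7.79 and 7.24 with NUP98-CDX1 and 6.21, 5.71 and 5.73 with NUP98-CDX4, and it was 3.25-fold lower with NUP98-CDX4 than with NUP98-CDX1 (limma adjusted p = 0.0393). All NUP98-CDX4 arrays lay below all others for Fcer1a, and the NUP98-CDX1 arrays lay just below the EGFP arrays without passing the test. Kit, the stem cell factor receptor, had means of 12.03, 12.40 and 12.08 and did not pass (limma adjusted p = 0.586 and 0.98). Tph1, Rgs13, Enpp3 and Mrgprb1 were detected on no array and Mrgprb2 only on EGFP replicate 3. The basophil genes Prss34 and Cd200r3 were detected on every array of each group. Mast cell proteases is thus the name of the gene set, and which cells made the transcripts was not tested.

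**Figure D5:**
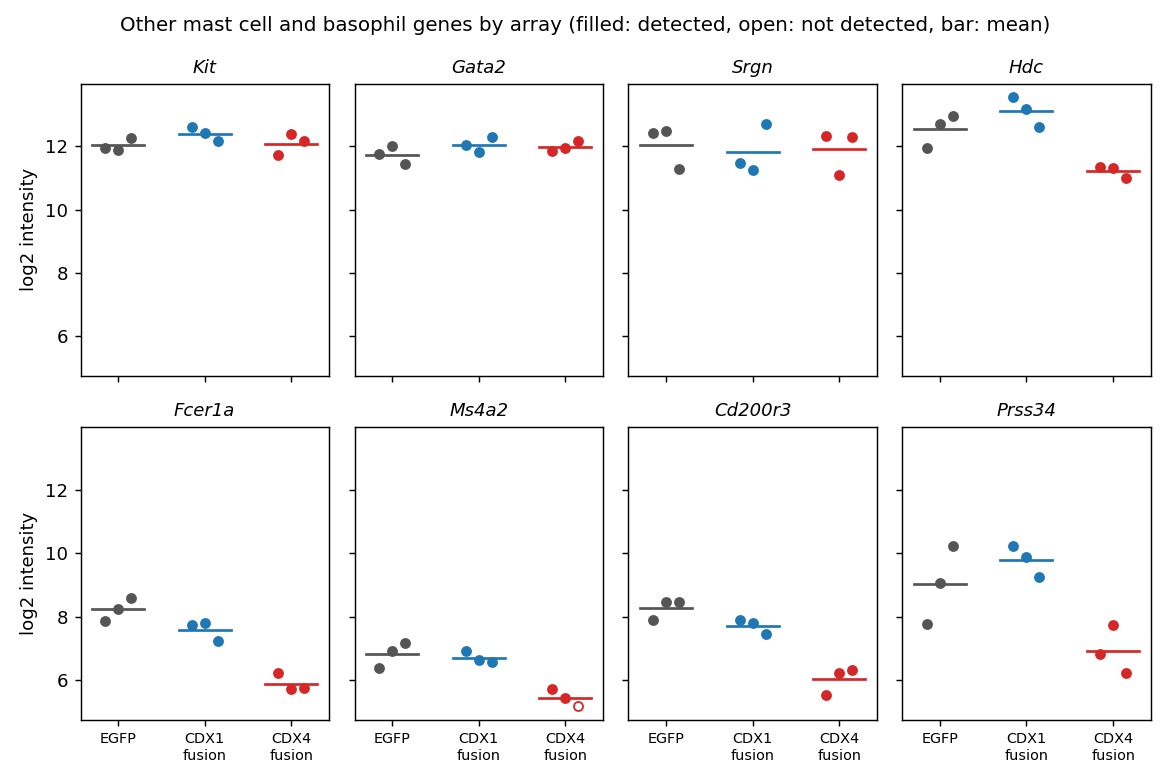
Log2 intensity on each of the 9 arrays for 8 other mast cell and basophil genes, with filled points detected, open points not detected and the bar at the group mean. Kit, Gata2 and Srgn lie at similar levels in the 3 groups, and Fcer1a and Cd200r3 are lowest with NUP98-CDX4.

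Genes that store, regulate or inhibit the proteases were counted against the same shares of all features, 0.441% lower and 0.6% higher with NUP98-CDX1 and 2.95% lower and 2.42% higher with NUP98-CDX4, and counts of 0 are near them. Of 17 granule storage genes 15 were measured, and 0 passed limma's threshold with NUP98-CDX1 (1 at an unadjusted p under 0.05, median difference -0.079). With NUP98-CDX4 Hdc and the lysosomal trafficking gene Lyst (at least 2.29-fold, limma adjusted p = 0.0316) were lower. Lyst was detected on 2 of the 3 NUP98-CDX4 arrays. Of 19 transcription factors and other regulators of mast cells 15 were measured and 0 passed limma's threshold in either comparison (4 and 3 at an unadjusted p under 0.05, median differences 0.214 and -0.036), Gata2 among them at 11.73, 12.05 and 11.99. Of 10 protease inhibitors 6 were measured. With NUP98-CDX1 0 passed limma's threshold (2 at an unadjusted p under 0.05), and with NUP98-CDX4 Slpi, a secreted inhibitor of leukocyte serine proteases, was 4.09-fold higher (limma adjusted p = 0.00149) and Spint1, a membrane inhibitor, 5.22-fold lower (limma adjusted p = 0.011). Prss34, a protease of the tryptase cluster made by basophils and mast cells, read 7.78, 9.05 and 10.22 in EGFP, 10.23, 9.89 and 9.24 with NUP98-CDX1, and 6.83, 7.74 and 6.22 with NUP98-CDX4. Every NUP98-CDX4 array lay below all others, 4.25-fold lower than EGFP and 7.27-fold lower than NUP98-CDX1 on average, without passing the test (limma adjusted p = 0.086 and 0.133), and the difference with NUP98-CDX1 did not pass either (0.69). Cpb1 was the only other carboxypeptidase measured of 7 and did not pass (limma adjusted p = 0.63 and 0.9).

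Markers of other cell types moved with the groups as well, and their part in the protease results was not tested. Their counts stand beside 0.441% of all features called lower and 0.6% called higher with NUP98-CDX1. With NUP98-CDX4 these shares were 2.95% and 2.42%. Counts of 0 are near them. Of 7 basophil genes 6 were measured, 0 passed limma's threshold with NUP98-CDX1 (1 at an unadjusted p under 0.05), and Cd200r3 (4.76-fold) and Csf2rb (1.7-fold) were lower with NUP98-CDX4 (limma adjusted p = 0.00133 and 0.0286); their summed intensity ran from 1806 to 3225 in EGFP, 1900 to 3112 with NUP98-CDX1 and 1149 to 1450 with NUP98-CDX4, and Itga2 was not detected. Of 12 late neutrophil genes 10 were measured, with 4 lower with NUP98-CDX1 and 9 with NUP98-CDX4, Camp, Ltf, Lcn2 and Mmp9 in both, and their sum ran from 67100 to 76480, 35120 to 41090 and 6025 to 14330. Of 12 macrophage genes 11 were measured, with Adgre1, Ms4a7 and Ctss lower and Cd14 higher with NUP98-CDX1 and 8 lower with NUP98-CDX4, and their sum ran from 30960 to 40280, 21210 to 33720 and 8493 to 19790. Of 13 cytotoxic lymphocyte genes 3 were measured, Nkg7 rose in both (2.36-fold and 2.55-fold, limma adjusted p = 0.00834 and 0.00133), their sum ran from 2712 to 3146, 5338 to 6133 and 5702 to 7127, and Cd3e, Cd3d, Cd3g, Cd8a, Gzmk and Ncr1 were not detected. The summed mast cell identity genes ran from 25490 to 37590 in EGFP, 28610 to 38080 with NUP98-CDX1 and 20530 to 23590 with NUP98-CDX4, overlapping between EGFP and NUP98-CDX1. All these sums add unlogged intensities, so the brightest genes weigh most and a sum does not measure cell number. In EGFP the brightest were Fcer1g (mean log2 13.56) and Cd63 (12.97) for mast cells. They were Lyz2 (14.74) for macrophages and Nkg7 (11.03) for cytotoxic lymphocytes.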

How the data were processed

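Total RNA of 9 samples in 3 labelled groups was measured on single-colour Illumina arrays. The intensity values were deposited by the authors as raw probe signals from GenomeStudio (version not given), per the submitters' processing notes. Detection p-values were taken as deposited. A second deposited table, of processed intensities whose normalization no source states, served as an alternative. The members and gene lists were chosen with earlier results of these data known.

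Background correction and quantile normalization used the neqc function of limma 3.58.1 (offset 16, with negative control levels derived from detection p-values), in R 4.3.3, giving log2 values. A probe needed a detection p under 0.05 on 3 or more arrays, which left 19472 probes. Symbols came from the platform annotation, with 34885 probes having 1 symbol, 18 several and 10378 none. The brightest probe stood for each gene, giving 13160 features (10018 named, 3142 without a symbol), fitted in 1 limma model with a mean per group, empirical Bayes moderation and Benjamini-Hochberg adjustment over all features at 0.05. Named genes were all members, up to 4 genes per list with the smallest adjusted p, and the 5 named features most like Cma1, Tpsb2 or Cpa3. Kit, Gata2, Srgn, undetected markers and Cd14 were named beyond that rule, after their values were seen. The fit relative to Cpa3 subtracts that probe's value per array. The script was tested on simulated arrays. The number of arrays, 3 per group, limits precision. Same-numbered samples deviated together across groups only where they shared an array set, which cannot show whether they are pairs. The replicate numbers were not used as pairs. Alternatives were another offset, quantile normalization, the authors' processed intensities, no detection filter, all probes, each replicate left out, the array set as a block or within each set, and, added after seeing the data, no empirical Bayes step and other Cpa3 probes. Motifs and promoter identity were computed with Biopython 1.88.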

Additional observations from a re-analysis of the deposited data

How the results depend on the processing

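The count of protease genes called with NUP98-CDX1 was 3 to 4 and with NUP98-CDX4 4 to 6 in every setting run, against 4 and 5 as reported. Between the fusions, with 1 called as reported, 3 passed with the array set as a block. Without each replicate in turn the counts ran from 3 to 4 for NUP98-CDX1, 4 to 5 for NUP98-CDX4, 1 to 1 between the fusions and 4 to 5 for their mean, which stood at 5. Relative to Cpa3 they ran from 3 to 4, 3 to 5, 4 to 5 and 3 to 5 in that order. Tpsb2 dropped out of the test whenever an EGFP array was left out and within single array sets, since it then had under 3 detected arrays.

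Values relative to Cpa3 depended on the processing. With NUP98-CDX1, 4 genes passed as reported, 1 without the empirical Bayes step, and 0 and 0 with the other Cpa3 probes in that setting. With NUP98-CDX4, 4 passed as reported, 3 lower and Mcpt8 higher. There were 2 with quantile normalization, 2 with the authors' processed values and 9 without the detection filter. Cma1 turned from -0.95 to 0.251 and 0.290 under the first 2 of these settings. Between the fusions 5 passed as reported, all higher relative to Cpa3, and 9 without the filter. Cpa3 itself was lower there (log2 difference -2.95), which raises every feature relative to it. The count therefore says nothing particular to the proteases. For the mean of both fusions 4 passed, all lower, and 8 without the filter. The causes of these shifts were not tested, except that the unfiltered counts include genes detected on no array, whose values follow the reference alone.

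With the replicate number as a block the counts were 4, 5, 1 and 5, and relative to Cpa3 4, 5, 5 and 4. Deviations of same-numbered samples correlated between -0.792 and 0.672. They were positive only between arrays of the same array set (0.437, 0.672 and 0.623) and negative between arrays of different sets. The values therefore cannot show whether the numbers pair the samples. Signal near background limits the chymases and Tpsb2 with NUP98-CDX4 to bounds.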

Other observations

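EGFP replicate 3 stood at the end of the EGFP range for most of the proteases. It was the highest of the 3 EGFP arrays for Cma1 (9.22), Cma2 (10.53), Mcpt4 (9.88) and Tpsb2 (9.13), and the lowest for Mcpt8 (8.81). It was the only array on which the tryptase Tpsab1 (5.99) and Mrgprb2 (7.10), a receptor of connective tissue mast cells, were detected. Ms4a2 (7.16), Hdc (12.96) and Prss34 (10.22) were also highest there among the EGFP arrays. This array belongs to the dimmer set, while the other EGFP arrays belong to the brighter one, so sample and array set cannot be told apart.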
